A study of Homo sapiens with 6 samples.

Results

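The transcripts described here come from 46 nuclear genes whose products make, cut, modify, stabilize or degrade mitochondrial RNA (mt-RNA), out of 19330 genes listed in a count table from K562, an established cell line that derives from a chronic myelogenous leukemia. They were chosen by name, from a list set out by what the products do, and all 46 were found in the table. The list was made with earlier results of these data known. KIAA0391 is the older symbol of PRORP and is used here as the table gives it. For the description they were placed in 6 steps, which are transcription (5 genes), RNase P and Z cleavage (4 genes), tRNA modification and end maturation (10 genes), rRNA modification and ribosome assembly (10 genes), stability and polyadenylation (13 genes) and decay (4 genes).

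All libraries are RNA-Seq libraries of K562 cells that had received pLentiCRISPRv2, a lentivirus carrying Cas9 and a single guide RNA, and had been selected with puromycin. In the 3 sgCtrl libraries the guides were control guides, which the labels give as aimed at OR11A1 and OR2M49 and the study's methods as aimed at EGFP or at OR11A1 and OR2M4, and in the 3 sgN6AMT1 libraries at N6AMT1, a methyltransferase of the cytosol and nucleus that modifies translation release factors. Cells were analysed on day 10 after infection. The labels give selection with 10 mg/ml puromycin from 48 h after infection, whereas the study's methods state a far lower concentration. The study states 3 independent transductions per condition, and the sources used here do not say which guide went into which library. RNA was taken from cleared lysates and depleted of ribosomal RNA. Replicates 1, 2 and 3 of sgCtrl held 742470, 866894 and 866155 counts in total, and those of sgN6AMT1 held 959319, 5526904 and 4062363, so the conditions also differed in depth. A count of 0 allows up to 3 counts, or 0.543 to 4.04 cpm (counts scaled to a common library total) depending on the library.

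Human mitochondrial DNA is transcribed from both strands into long precursors by a single polymerase, POLRMT, with its partners TFAM and TFB2M. In these precursors tRNAs lie between most of the mRNAs and rRNAs, and excision of the tRNAs at their 5′ ends by RNase P and at their 3′ ends by RNase Z releases the other RNAs. Mitochondrial RNase P contains no RNA and consists of the 3 proteins TRMT10C, HSD17B10 and PRORP, while the RNase Z is ELAC2. The released tRNAs and rRNAs are then modified, mRNAs are held by LRPPRC and SLIRP and polyadenylated by MTPAP, and surplus RNA is removed by SUPV3L1 and PNPT1. All of these proteins are encoded in the nucleus and imported. The question addressed was whether the transcripts of their genes differ when N6AMT1 is targeted.

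The condition of each library was first examined on the targeted gene and on the mitochondrial RNAs themselves. In sgCtrl, N6AMT1 had 6, 5 and 9 counts, and in sgN6AMT1, despite the greater depth of replicates 2 and 3, it had 0, 18 and 16. On total counts this was 8.08, 5.77 and 10.4 cpm against 0, 3.26 and 3.94 cpm, a difference of means of -5.68 cpm with no overlap (two-sided exact permutation p = 0.1, the smallest possible with 3 against 3). The 13 open reading frames of mitochondrial DNA took 5.26%, 4.38% and 3.21% of all counts in sgCtrl and 1.92%, 0.816% and 0.461% in sgN6AMT1, and 12 of the 13 were called, all lower, with a median log2 fold change of -2.30. MT-ND6, at -1.14 (adjusted p = 0.0655, edgeR), was not called. MT-CO1, which had the highest mean normalized counts of the 13 in sgCtrl, had a log2 fold change of -1.48 (SE 0.27, adjusted p = 0.00238, edgeR). Per kilobase of transcript, the sgCtrl means of MT-CO3 and MT-CO2 were above that of MT-CO1 (8979 and 6347 against 5709 normalized cpm per kb). The sgN6AMT1 libraries were all lower but differed among themselves, replicate 1 being nearest to sgCtrl. The 46 nuclear transcripts took 0.380%, 0.409% and 0.409% of all counts in sgCtrl and 0.402%, 0.402% and 0.427% in sgN6AMT1, so the ranges of their summed share overlapped. Counts do not separate less RNA per cell from fewer cells with that RNA, and the same holds for each transcript below.

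All 12 markers of erythroid K562 cells had counts in every library. Of the 4 globin mRNAs among them, 3 were higher in sgN6AMT1, with log2 fold changes of 1.04 for HBG1, 1.05 for HBG2 and 0.89 for HBE1 (adjusted p = 0.0149, 0.0144 and 0.00414, edgeR), and HBZ was at -0.39 (adjusted p = 0.116), whereas LMO2, an erythroid transcription cofactor, was lower at -1.01 (adjusted p = 0.0239). The summed level of the 12 markers was 11898, 12336 and 19097 normalized cpm in sgCtrl and 19184, 24758 and 35845 in sgN6AMT1, and HBG1 was the most abundant. Of 13 markers of epithelial cells, fibroblasts, lymphocytes and monocytes, 5 had counts in every library and 7 had none in any sgCtrl library, KRT5 and MS4A1 being at 0 throughout. Their sum was 200.2, 240.0 and 223 normalized cpm against 238, 212 and 198, with EPCAM the most abundant, and LYZ alone among those tested rose (log2 fold change 0.83, adjusted p = 0.0489). Whether the shift in erythroid transcripts has a part in the differences below was not tested.

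In the comparison of sgN6AMT1 with sgCtrl, 43 of the 46 transcripts had enough counts to be tested, and 3 of them were differentially expressed at an adjusted p under 0.05 in edgeR. TRIT1 and FASTK rose and THG1L fell. This was 6.98% of those tested, where 9.85% of all 8324 genes tested were called (424 higher, 5.09%, and 396 lower, 4.76%). The share rests on 3 calls and lay near that of all genes, and the difference between the shares was not tested. With at least 10 counts required in every library it was 4 of 39 transcripts, beside 701 of 7129 genes, and with no filter on low counts 4 of 45, beside 1201 of 13874. Unadjusted p-values under 0.05 were found for 11 transcripts (8 higher and 3 lower, 25.6% of those tested), beside 26.2% of all genes. In 13 transcripts the conditions did not overlap (7 higher and 6 lower, 30.2%), beside 29.2% of all genes (15.1% higher and 14.1% lower). The log2 fold changes ran from -1.01 to 0.98 with a median of 0.09, 27 being positive (62.8%) and 16 negative, beside 50.8% positive and a median of 0.0087 over all genes. For 34 of the 43 transcripts the 95% confidence interval lay within a 2-fold change in either direction (79.1%, beside 69.9% of all genes). DESeq2, run on the same counts, called 1 of the transcripts, THG1L, and 6.54% of all genes it tested.

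**Figure D1:**
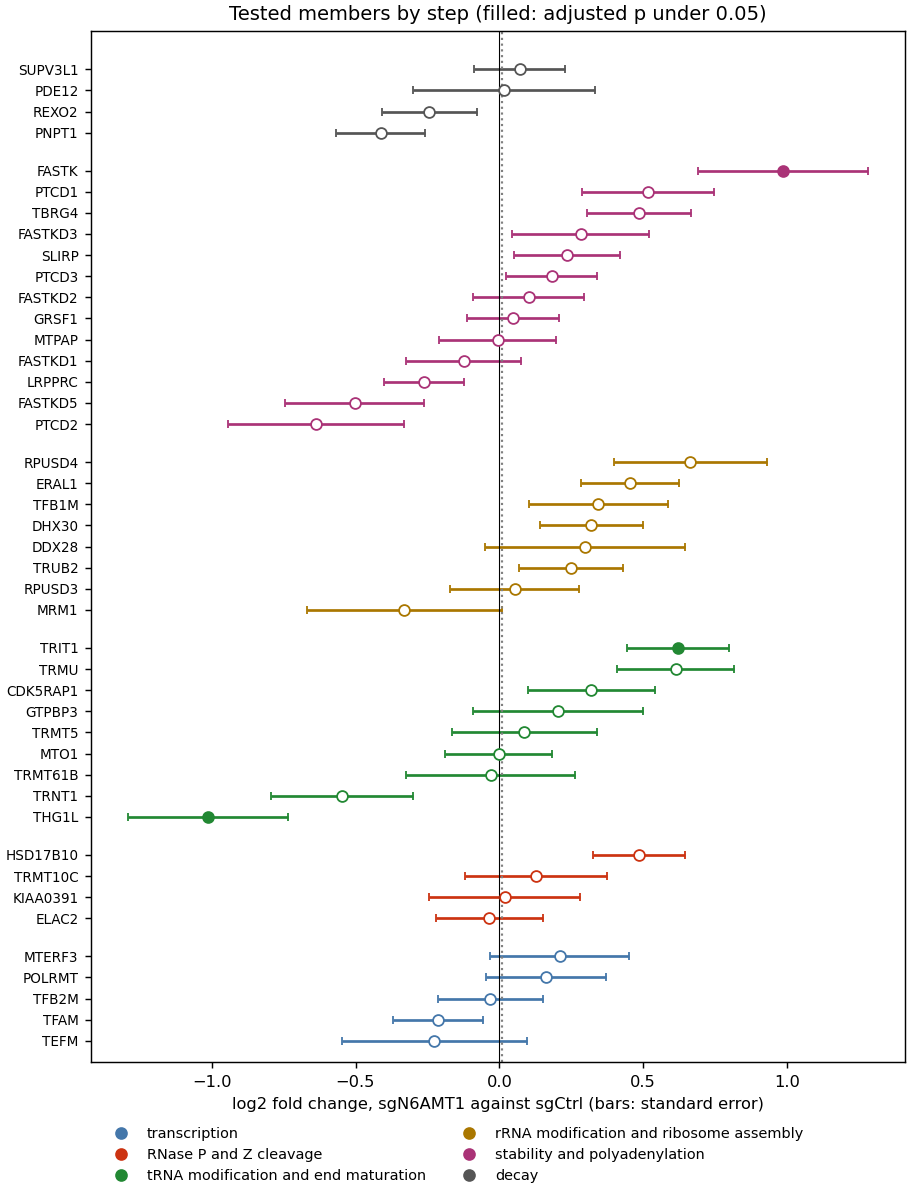
Log2 fold change of each of the 43 tested transcripts, sgN6AMT1 against sgCtrl, grouped and colored by step, with standard errors as bars; filled points have an adjusted p under 0.05 and the dotted line is the median of all genes tested. Most points lie within 0.5 of zero, and only FASTK, TRIT1 and THG1L are filled.

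By step, the median log2 fold change was -0.03 for transcription, 0.07 for RNase P and Z cleavage, 0.09 for tRNA modification, 0.31 for rRNA modification and ribosome assembly, 0.10 for stability and -0.11 for decay. The sum of normalized counts over a step was 0.958, 1.16, 1.11, 1.21, 1.02 and 0.869 times that of sgCtrl in the same order, and over all 46 transcripts it was 1.04 times, the sums being 4020.4 ± 202.7 normalized cpm for sgCtrl and 4196 ± 231 for sgN6AMT1 (SD, n = 3). In single libraries, the median of the tested transcripts relative to the sgCtrl mean was -0.11, 0.02 and 0.07 on the log2 scale in sgCtrl and 0.09, 0.07 and 0.14 in sgN6AMT1. The lowest sgN6AMT1 value was thus barely above the highest sgCtrl value. For the rRNA step the same medians were -0.11, -0.08 and 0.05 in sgCtrl and 0.13, 0.16 and 0.51 in sgN6AMT1, which did not overlap. The medians of the other 5 steps overlapped between the conditions except that of stability, at -0.09, 0.02 and 0.01 against 0.23, 0.04 and 0.10. The sums gave another picture, since those of the rRNA step overlapped (535 to 621 normalized cpm in sgCtrl and 597 to 844 in sgN6AMT1), while those of tRNA modification (407 to 457 and 468 to 496) and of decay (527 to 555 and 438 to 499) did not.

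**Figure D2:**
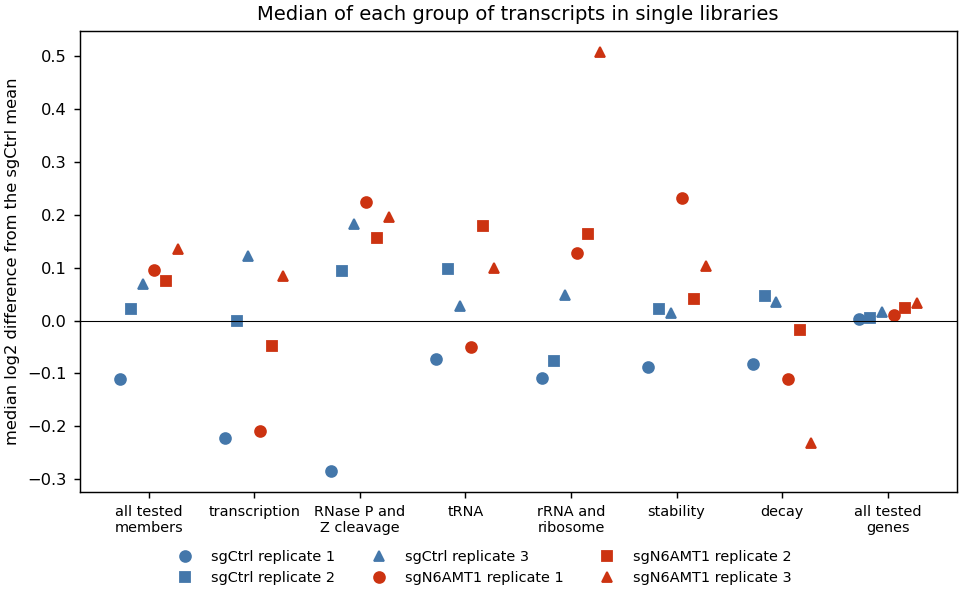
Median log2 difference from the sgCtrl mean in each of the 6 libraries (y axis) for all tested mt-RNA transcripts, for each step and for all genes tested (x axis); colors mark the condition and shapes the replicate number. The rRNA and ribosome step is above zero in all 3 sgN6AMT1 libraries, with replicate 3 highest at 0.51, whereas all genes stay close to zero.

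Among the transcripts themselves, levels were compared per kilobase of the canonical transcript, because longer transcripts collect more reads. Counts were made per gene, whereas the length is that of a single transcript, so the order depends on that choice. The SDs below do not cover it. Before division by length, SLIRP (376 nt) had a mean of 71.9 normalized cpm in sgCtrl and LRPPRC (6603 nt) 643. In sgCtrl the highest was SLIRP, the small partner of LRPPRC, at 191 ± 16.2 normalized cpm per kb (SD, n = 3), followed by HSD17B10 at 150.8 ± 19.5, the exonuclease REXO2 at 142 ± 13.1, LRPPRC at 97.4 ± 5.76 and TBRG4 at 83.8 ± 13.98. The lowest with counts were PTCD2 at 2.40 ± 0.199 and NSUN3, a tRNA methyltransferase, at 1.45 ± 0.500, and the span between SLIRP and NSUN3 was 132-fold. In 39 of the 45 neighboring pairs of this order the ranges of the sgCtrl libraries overlapped, so most neighbors could not be ranked, while SLIRP stood just clear of HSD17B10, and REXO2 of LRPPRC. Of the 10 highest in sgCtrl, 9 were among the 10 highest in sgN6AMT1. NSUN4, an rRNA methyltransferase, had 0 counts in all 6 libraries, and NSUN3 (6, 6 and 11 counts against 8, 54 and 32) and MTERF4, the partner of NSUN4 in ribosome assembly (6, 11 and 11 counts against 4, 42 and 23), were below the filter on low counts. None of these 3 was tested. Whether the 0 of NSUN4 comes from the annotation or the counting or from absent RNA cannot be told apart from a table of counts.

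**Figure D3:**
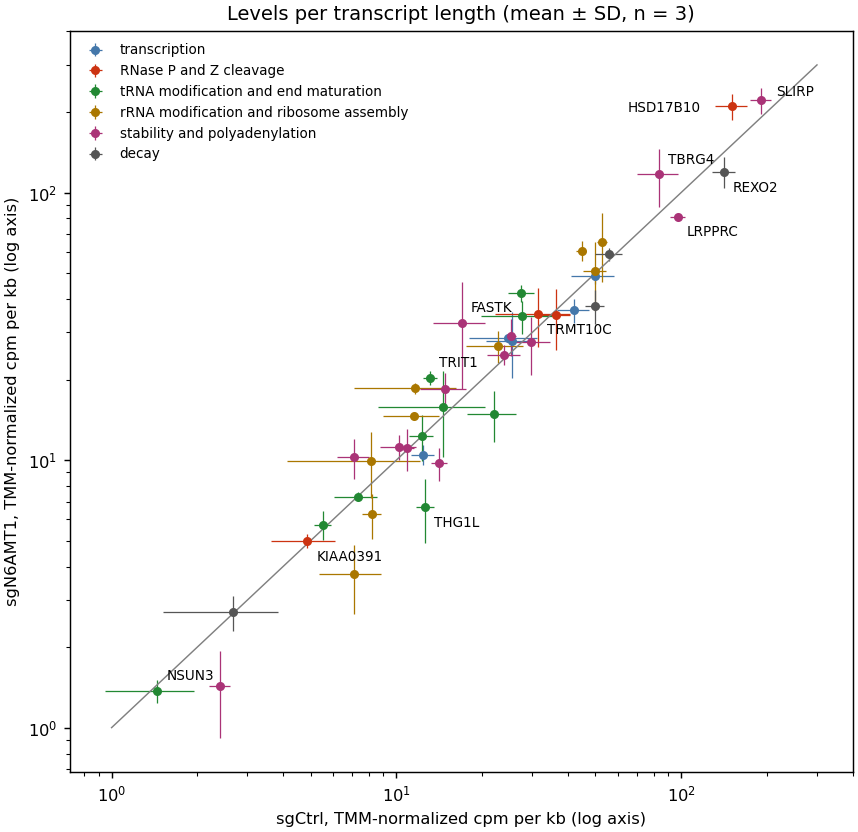
Mean level per kilobase of transcript in sgN6AMT1 (y axis) against sgCtrl (x axis), both in TMM-normalized cpm per kb on log axes, for the 45 transcripts with counts; bars are SDs over 3 libraries, colors mark the step and the line marks equal levels. The points follow the line from NSUN3 at 1.45 to SLIRP at 191 in sgCtrl, with THG1L below it and FASTK and TRIT1 above it.

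Of the transcription genes, none of 5 passed the test (beside 9.85% of all genes) and in none did the conditions stand apart (beside 29.2%). TFB2M, which melts the promoter for POLRMT, had the highest mean per length (49.7 ± 8.52 normalized cpm per kb in sgCtrl), in a range that overlapped that of TFAM. Its normalized counts were 71.2, 99.2 and 95.5 cpm in sgCtrl and 84.3, 83.0 and 93.1 in sgN6AMT1, so all sgN6AMT1 libraries lay within the sgCtrl range, and the log2 fold change was -0.03 (SE 0.18, adjusted p = 0.935, edgeR). TFAM, which packages mitochondrial DNA and starts transcription, had the smallest p of the step, with 180.1, 233 and 222 cpm in sgCtrl and 176, 204 and 167 in sgN6AMT1. The sgN6AMT1 library at 204 cpm lay inside the sgCtrl range and the other 2 below it, and the log2 fold change was -0.21 (SE 0.16, 95% confidence interval -0.54 to 0.11, adjusted p = 0.413). After correction for transcript GC content and length it was -0.0043 (adjusted p = 0.990). POLRMT, the elongation factor TEFM and MTERF3 had log2 fold changes of 0.16, -0.23 and 0.21, all with intervals that included zero.

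None of the 4 genes of RNase P and RNase Z passed the test, beside 9.85% of all genes. In 1 of them, HSD17B10, the conditions did not overlap (25%, beside 29.2% of all genes). TRMT10C, the methyltransferase subunit that binds the precursor tRNA (chromosome 3, 101561868 to 101566446, plus strand, GRCh38), had 37.6, 64.6 and 68.4 normalized cpm in sgCtrl and 75.9, 69.9 and 45.8 in sgN6AMT1. One library of each condition was low, sgCtrl replicate 1 and sgN6AMT1 replicate 3, and the groups overlapped, with a log2 fold change of 0.13 (SE 0.25, 95% confidence interval -0.39 to 0.64, adjusted p = 0.792). KIAA0391, the nuclease subunit (chromosome 14, 35121846 to 35277622, plus strand), had 21.5, 35.8 and 33.0 cpm in sgCtrl and 31.6, 28.7 and 32.4 in sgN6AMT1. The sgN6AMT1 libraries were close together and inside the sgCtrl range, and the log2 fold change was 0.02 (SE 0.26, 95% confidence interval -0.53 to 0.57, adjusted p = 0.972). KIAA0391 rests on 16 to 31 counts per sgCtrl library, and its exons share 2858 bases with a read-through gene on its own strand and 350 with PPP2R3C on the other, so some of its counts are uncertain.

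HSD17B10, the dehydrogenase that pairs with TRMT10C in RNase P (chromosome X, 53431258 to 53434370, minus strand), had 130.3, 136 and 165 normalized cpm in sgCtrl and 182, 195 and 225 in sgN6AMT1. Every sgN6AMT1 library was above every sgCtrl library, yet at a log2 fold change of 0.49 (SE 0.16, 95% confidence interval 0.15 to 0.82) the adjusted p was 0.0606 and it did not pass. ELAC2 (chromosome 17, 12991612 to 13018065, minus strand) had 155, 133 and 124 cpm in sgCtrl and 95.9, 134 and 163 in sgN6AMT1. The sgN6AMT1 libraries spanned more than the sgCtrl range, and the log2 fold change was -0.04 (SE 0.19, 95% confidence interval -0.43 to 0.36, adjusted p = 0.931). Per kilobase, HSD17B10 was 6.58, 4.00 and 4.59 times as abundant as TRMT10C in sgCtrl and 4.57, 5.29 and 9.36 times in sgN6AMT1, so the ratio between the subunits overlapped between the conditions. The log2 fold change of HSD17B10 was 0.29 (adjusted p = 0.182) after correction for transcript GC content and length, and with at least 10 counts required in every library its adjusted p was 0.0481.

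**Figure D4:**
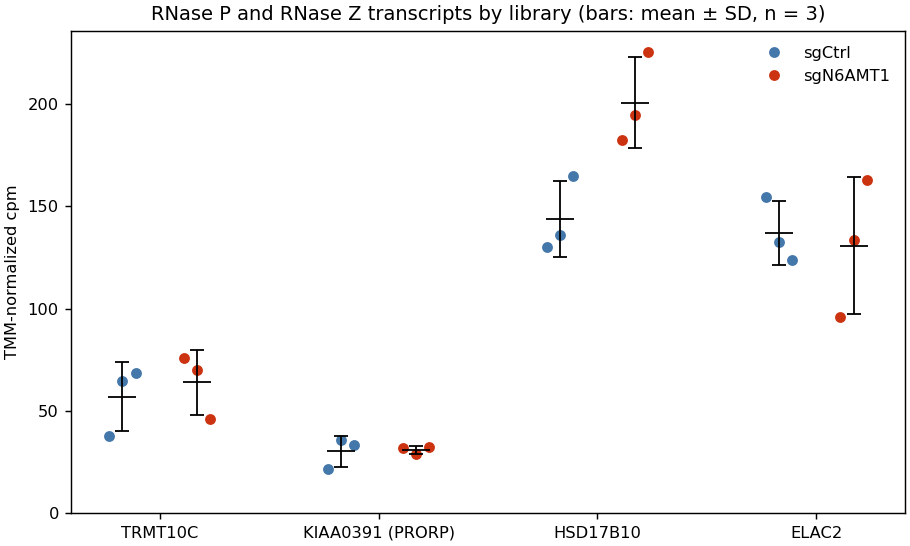
TMM-normalized cpm (y axis, from 0) of the 3 RNase P subunits and of ELAC2 (x axis) in each library; blue points are sgCtrl, red points sgN6AMT1, and bars are mean ± SD (n = 3). The points of TRMT10C, KIAA0391 and ELAC2 overlap between the conditions, and those of HSD17B10 do not.

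Of the 10 genes of tRNA modification and end maturation, 9 were tested and 2 passed (22.2%, beside 9.85% of all genes). These 2 moved in opposite directions. The share rests on few transcripts, and its difference from that of all genes was not tested. TRIT1, the enzyme that adds an isopentenyl group beside the anticodon of certain tRNAs in the cytosol and in mitochondria (chromosome 1, 39838110 to 39883511, minus strand), had 67.2, 62.3 and 69.6 normalized cpm in sgCtrl and 109.6, 97.3 and 101.3 in sgN6AMT1. The libraries of a condition were close together and the conditions well apart. TRIT1 rose with a log2 fold change of 0.62 (SE 0.18, 95% confidence interval 0.25 to 0.99, adjusted p = 0.0333), or 1.54-fold. Its call was lost in DESeq2 (log2 fold change 0.60, adjusted p = 0.0706) and in 5 of 6 edgeR fits with a library left out. CDK5RAP1, which adds a methylthio group to the same position of mitochondrial tRNAs after TRIT1, had the highest mean of the step per length, not separable from that of TRMU, with 39.0, 64.6 and 68.4 cpm in sgCtrl and 69.5, 63.2 and 83.0 in sgN6AMT1. These values overlapped, and the log2 fold change was 0.32 (SE 0.22, adjusted p = 0.383), or 0.20 with the GC correction.

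THG1L, a protein of the tRNA-His guanylyltransferase family that adds nucleotides at the 5′ end of tRNA (chromosome 5, 157731420 to 157741449, plus strand), had the largest fall of the 43. Its normalized counts were 33.6, 36.9 and 38.9 cpm in sgCtrl and 25.3, 15.9 and 16.7 in sgN6AMT1. Replicate 1 of sgN6AMT1, the library with the highest mitochondrial share of that condition, lay between the sgCtrl libraries and the other 2. THG1L fell with a log2 fold change of -1.01 (SE 0.28, 95% confidence interval -1.59 to -0.43, adjusted p = 0.0278), or to 0.50 of the sgCtrl level, on 24 to 87 counts per library. Its call was lost in 5 of 6 fits with a library left out (adjusted p up to 0.126, edgeR) and after thinning to the shallowest library. The others of this step did not pass. TRMU, which thiolates the wobble uridine, had a log2 fold change of 0.61 (adjusted p = 0.0614) without overlap, and its partners in the other modification of that base, MTO1 and GTPBP3, had -0.00 and 0.20. TRNT1, which adds the CCA end in both compartments, had -0.55 (adjusted p = 0.165), also without overlap, and shares 2865 exonic bases with CRBN on the other strand. TRMT5 and TRMT61B, which methylate tRNAs, were at 0.09 and -0.03.

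Of the 10 genes of rRNA modification and ribosome assembly, 8 were tested and none passed, beside 9.85% of all genes. A positive log2 fold change was found in 7 (87.5%, beside 50.8% of all genes). ERAL1, a GTPase that chaperones the 12S rRNA, had the smallest p of the step, with 84.7, 78.5 and 83.7 normalized cpm in sgCtrl and 102, 112 and 121 in sgN6AMT1. All sgN6AMT1 libraries were above sgCtrl, and the log2 fold change was 0.45 (SE 0.17, 95% confidence interval 0.10 to 0.81, adjusted p = 0.0972), or 0.29 (adjusted p = 0.231) with GC content and length corrected. DHX30, an RNA helicase of the mitochondrial RNA granules and with the highest mean of the step per length, not separable from that of RPUSD3, had 206, 210.0 and 195 cpm in sgCtrl and 201, 219 and 335 in sgN6AMT1. Only sgN6AMT1 replicate 3 stood apart, and the log2 fold change was 0.32 (SE 0.18, adjusted p = 0.270), 0.06 without that library and 0.20 with the GC correction. The pseudouridine synthases RPUSD4, TRUB2 and RPUSD3 had log2 fold changes of 0.66, 0.25 and 0.05, the dimethyltransferase TFB1M 0.34, the helicase DDX28 0.30 and the ribose methyltransferase MRM1 -0.33. Without sgN6AMT1 replicate 3, the median of the step was 0.10 in place of 0.31. Its transcripts were also the richest in GC of all steps, with a median of 53.3% beside 44.3% over the 46, and once GC content and length had been corrected for, the step stood at a median of 0.21.

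Of the 13 genes of stability and polyadenylation, all were tested and 1 passed (7.69%, beside 9.85% of all genes). FASTK, the founding member of a family of mitochondrial RNA-binding proteins and needed for the ND6 mRNA (chromosome 7, 151076624 to 151080866, minus strand), had 37.6, 27.7 and 25.9 normalized cpm in sgCtrl and 42.2, 45.4 and 87.2 in sgN6AMT1. The conditions did not overlap, but sgN6AMT1 replicates 1 and 2 were only slightly above the highest sgCtrl library. FASTK rose with a log2 fold change of 0.98 (SE 0.30, 95% confidence interval 0.37 to 1.60, adjusted p = 0.0422), or 1.98-fold. Without sgN6AMT1 replicate 3 it was 0.55 (adjusted p = 0.246), and after correction for GC content and length it was 0.76 (adjusted p = 0.0641). The other family members were at -0.12 for FASTKD1, 0.10 for FASTKD2, 0.28 for FASTKD3, -0.50 for FASTKD5 and 0.49 for TBRG4, the last being FASTKD4 (adjusted p of 0.0936 or more). The members with the highest values, FASTK and TBRG4, have transcripts of 63.2% and 59.0% GC, and the other 4 of 38.6% to 45.2%.

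The LRPPRC and SLIRP complex holds mitochondrial mRNAs outside the ribosome. LRPPRC was the transcript with the most counts of all 46 and had 605, 681 and 645 normalized cpm in sgCtrl and 551, 523 and 536 in sgN6AMT1. The conditions did not overlap, but the difference was small, with a log2 fold change of -0.26 (SE 0.14, 95% confidence interval -0.55 to 0.03, adjusted p = 0.240), or -0.12 with GC content and length corrected. SLIRP had 77.9, 65.8 and 71.9 cpm in sgCtrl and 72.7, 86.7 and 90.8 in sgN6AMT1, which overlapped, and its log2 fold change was 0.24 (SE 0.18, adjusted p = 0.447). The pentatricopeptide repeat proteins PTCD1, PTCD2 and PTCD3 were at 0.52, -0.64 and 0.18. The exons of PTCD1 share 2382 bases with the read-through gene ATP5MF-PTCD1 and 53 with ATP5MF on its own strand and 919 with BUD31 on the other, so its counts are uncertain. The granule protein GRSF1 was at 0.05. MTPAP, the poly(A) polymerase, was at -0.01 (95% confidence interval -0.43 to 0.42).

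Of the 4 genes of decay, none passed, beside 9.85% of all genes. PNPT1, the polynucleotide phosphorylase that degrades mt-RNA, had 218, 247 and 215 normalized cpm in sgCtrl and 200.2, 153 and 162 in sgN6AMT1. All sgN6AMT1 libraries were below sgCtrl, with a log2 fold change of -0.41 (SE 0.16, 95% confidence interval -0.74 to -0.09) and an adjusted p of 0.0982, or -0.27 (adjusted p = 0.205) after correction for GC content and length. SUPV3L1, the helicase that works with it, was at 0.07 (95% confidence interval -0.26 to 0.40). REXO2, which clears short RNAs left by the degradation and was the most abundant of the step per length, had 141, 149 and 169 cpm in sgCtrl and 131, 146 and 111 in sgN6AMT1. These overlapped, with a log2 fold change of -0.24 (SE 0.16, adjusted p = 0.367), and PDE12, which removes poly(A), was at 0.02. Per kilobase, SUPV3L1 and PNPT1 could not be ranked in sgCtrl, where they had 56.0 ± 6.13 and 49.8 ± 3.92 normalized cpm per kb.

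A further 36 genes of mt-RNA metabolism that are not among the 46 were set beside them. Of these, 34 were tested. Their log2 fold changes were above zero in 19 and below it in 15 (median 0.05), and 6 had conditions that did not overlap (4 higher and 2 lower, 17.6%, beside 29.2% of all genes). YRDC, which makes the threonylcarbamoyl group of tRNA, was the only one that passed (2.94%, beside 9.85% of all genes), at 43.0, 39.2 and 51.9 normalized cpm in sgCtrl and 73.8, 73.7 and 80.0 in sgN6AMT1. It rose with a log2 fold change of 0.76 (SE 0.20, adjusted p = 0.0239).

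Regulators of nuclear genes for mitochondrial proteins were listed as a separate set of 8, of which 7 were tested. None passed, and none had an unadjusted p under 0.05. PPARGC1B, a coactivator, had the smallest p at a log2 fold change of -0.69 (SE 0.35, adjusted p = 0.221), followed by the nuclear receptor ESRRA at 0.51 (SE 0.27, adjusted p = 0.238), and for both the conditions overlapped. NRF1 was at 0.42, PPRC1 at -0.36, GABPA at -0.29, GABPB1 at 0.16 and YY1 at -0.13, and PPARGC1A had 0 counts in all libraries.

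NRF1, GABP and YY1 bind promoters of genes for mitochondrial proteins, and the letters they recognize were searched for on both strands from 250 bases before to 50 after the start of each RefSeq gene (GRCh38.p14). A promoter was present for 42 of the 46 genes. They are set beside all 27305 promoters, which were not limited to genes expressed in K562. Shares among the genes tested here were not computed. The NRF1 letters, GCGCA and GCGC with any 1 base between them, were in 5 of the 42 (11.9%) and in 6.28% of all 27305 promoters, the letters CCGGAAG of GABP and other ETS factors in 16 (38.1%) and 10.7%, and the YY1 letters AAGATGGCG in 4 (9.52%) and 1.85%. Among tested transcripts with a promoter, the median log2 fold change was 0.16 with the NRF1 letters (5 transcripts) and 0.08 without them (34), 0.14 (14) and 0.07 (25) for the ETS letters, and 0.45 (4) and 0.05 (35) for the YY1 letters, the 4 being FASTK, PTCD3, RPUSD4 and SLIRP. As examples, matches are shown for the polymerase, TFAM and an rRNA methyltransferase (NRF1 letters) and for an RNase P subunit, ELAC2 and THG1L (ETS letters). The match is in capitals, with 8 bases on each side, 5′ to 3′ on the strand of the gene.
POLRMT, chr19:633544-633569, minus strand: cggcgcggGCGCATGCGCaggcgcgg
TFAM, chr10:58385339-58385364, plus strand: gctctcccGCGCCTGCGCcaattccg
TFB1M, chr6:155314599-155314624, minus strand: aggacttaGCGCATGCGCtctcagca
TRMT10C, chr3:101561812-101561834, plus strand: aagcagcgCCGGAAGggagaggg
ELAC2, chr17:13018236-13018258, minus strand: ctgtgcttCCGGAAGtcccgccc
THG1L, chr5:157731389-157731411, plus strand: agagaacaCTTCCGGggcggggc
The TFAM match overlaps the 5′ end of the gene as GENCODE draws it, and the ELAC2 match overlaps a second one on the other strand. POLRMT and TFB1M hold both kinds of letters. A match is a description of the sequence, and binding was not measured in these libraries.

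Transcript GC content moved with the fold change over all genes. With all genes split into 5 groups of equal size by rising GC content, the median log2 fold change was -0.14, -0.07, 0.02, 0.11 and 0.18, and for the mt-RNA transcripts in the same groups it was -0.17 (8 transcripts), 0.02 (14), -0.24 (5), 0.45 (9) and 0.20 (7). With GC content and length corrected in each library, TRIT1 was at 0.74 (adjusted p = 0.00812) and THG1L at -1.01 (adjusted p = 0.0201). They were the 2 of the 46 called in that fit, in which 11.1% of all genes were called.

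Depth and spread between libraries limited what could be seen. In sgCtrl the tested transcripts had 9 to 590 counts per library, with a median of 54, and 8 of them had under 30 counts in every sgCtrl library. The median coefficient of variation among sgCtrl libraries was 12.9%, where counting alone gives 14.2%, and in sgN6AMT1 it was 14.1%, where counting alone gives 8.44%. Counting alone was exceeded in sgCtrl by 26 of the 43 transcripts, TRMT10C among them (29.5% against 14.6%), and over all genes the chi-square per degree of freedom between sgCtrl libraries was 2.04 to 3.74 and between sgN6AMT1 libraries 3.80 to 11.9, where counting alone gives about 1. The higher sgN6AMT1 values, 8.82 and 11.9, were those of the pairs with replicate 3. At a given spread between libraries this value rises with depth, so it does not compare the spread of the deeper sgN6AMT1 libraries with that of sgCtrl. In simulated libraries of the same depths, the fit called 73 of 99 genes with a true log2 change of 1. It called 92 of 92 with a true change of 2. Every simulated gene had the same spread between libraries, and no GC trend was built in. Only genes above a minimum mean count were changed. These shares therefore need not hold for the real libraries. For changes of the size seen in most of these transcripts, a median of 0.24 on the log2 scale regardless of sign, no such simulation was run.

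**Figure D5:**
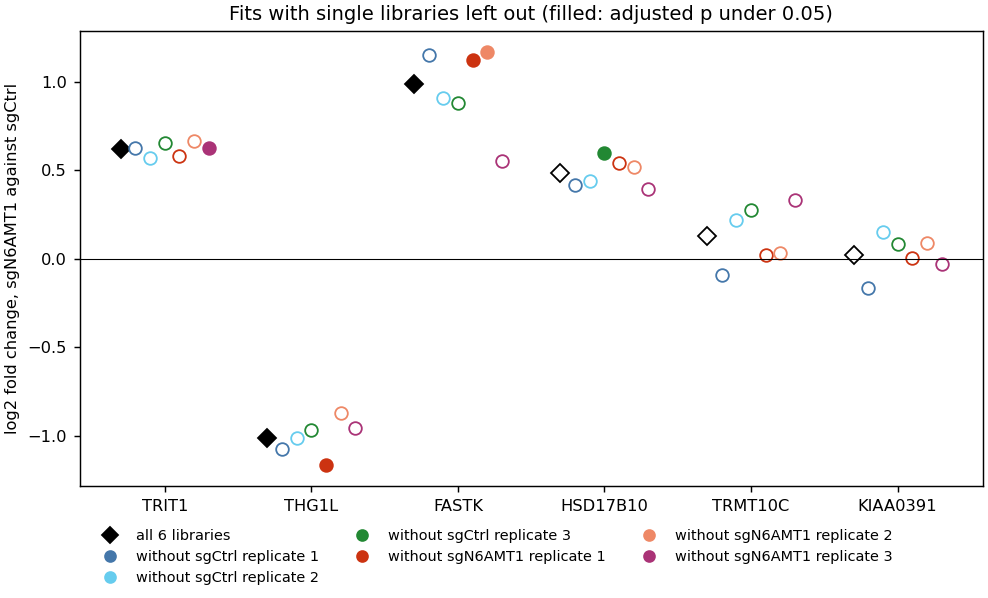
Log2 fold change, sgN6AMT1 against sgCtrl (y axis), of 6 transcripts (x axis) with all 6 libraries (diamonds) and after removal of single libraries (circles); filled symbols have an adjusted p under 0.05. TRIT1 stays between 0.57 and 0.67 and THG1L between -1.17 and -0.87, FASTK falls to 0.55 without sgN6AMT1 replicate 3, and TRMT10C and KIAA0391 cross zero.

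With each library left out in turn, the directions of TRIT1, THG1L and FASTK did not change, but each lost its call in most of the 6 fits. TRIT1 passed only without sgN6AMT1 replicate 3 (adjusted p = 0.0469) and THG1L only without sgN6AMT1 replicate 1 (adjusted p = 0.0128). FASTK passed without sgN6AMT1 replicate 1 or 2 (adjusted p = 0.0131 and 0.0278). HSD17B10 passed without sgCtrl replicate 3 (adjusted p = 0.0478), and TBRG4 without sgN6AMT1 replicate 1. Without sgCtrl replicate 1 or 2 none of the 46 passed, in fits that called 301 and 220 of all genes in place of 820.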

How the data were processed

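The deposited table holds raw counts per gene for 6 libraries, which the authors made by trimming with cutadapt (minimum length 15, quality cutoff 2), mapping with HISAT2 to GRCh38 and overlapping the reads with the genes of Ensembl release 84. The counting tool and its use of strand and of multiply mapped reads are not given in the sources used here, so counts of genes that overlap on opposite strands are uncertain. The labels list polyA RNA, the protocol total RNA depleted of rRNA. Everything else was computed from these counts. The members, steps and further lists were chosen with earlier results of these data known.

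Conditions and replicate numbers came from the labels. The study states 3 independent transductions per condition, so p-values measure the spread between transduced populations of one cell line. All 19330 genes entered one fit in edgeR 4.0.16 (R 4.3.3) with filterByExpr, TMM normalization, glmQLFit and glmQLFTest over the 6 libraries without covariates, and p-values were adjusted by Benjamini-Hochberg over the 8324 genes tested. Normalized cpm are TMM-normalized. SEs are the log2 fold change divided by the root of F. N6AMT1 was compared by a two-sided exact permutation test. A count of 0 was read as up to 3 counts. This floor covers counting error only. Transcript lengths and GC content are those of GENCODE 44 canonical transcripts (GRCh38), matched for 18891 symbols, 907 of them older ones, and available for 98.4% of the genes tested. Promoters are RefSeq's (GRCh38.p14).

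Values in each library are given for members with an adjusted p under 0.05, the 4 RNase P and Z genes, and in each step the member with the highest level per length and the one with the smallest p. LRPPRC was added to these after its values were seen. Of the other lists, genes that passed and the one with the smallest p are named, and the remaining regulators and markers named were chosen after their values were seen. Alternatives were DESeq2 1.42.0, RLE or total counts, normalization without mt-DNA-encoded genes, no filter or at least 10 counts in every library, a replicate block, correction for GC content and length with and without the block, thinning to 742470 counts, and leaving out each library. The fit was tested on simulated data, and 0 of 8265 genes were called where none had been changed. Where 200 genes had been changed, 7 of 8075 unchanged genes were called. The simulated spread was the same for every gene, so these counts need not hold for the real libraries.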

Additional observations from a re-analysis of the deposited data

How the results depend on the processing

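Of the 46 transcripts, 43 were tested and 3 called with all libraries, beside 820 of 8324 genes. DESeq2 called 1 of 45, beside 632 of 9659 genes. GC correction called THG1L and TRIT1 (2 of 43, beside 924 of 8324 genes). Thinning called TRIT1 and HSD17B10 (2 of 43, beside 572 of 7896 genes). With no filter 4 of 45 were called, beside 1201 of 13874 genes. With at least 10 counts it was 4 of 39, beside 701 of 7129 genes. Leaving out single libraries called 0 to 3, beside 220 to 951 of all genes. Of the 36 further mt-RNA genes 1 was called, against 2 without a filter on low counts, 0 after thinning and 0 to 2 with a library left out. Over all genes, 820 were called, against 220 to 951 with a library left out. The median log2 fold change of the transcripts was 0.09 and lay between 0.05 and 0.15 under the other alternatives, except 0.17 with correction for GC content and length, and between 0.06 and 0.11 with a library left out. It exceeded the median of all genes by 0.08, and lay below it, by -0.05, only without the filter. N6AMT1 was lower in sgN6AMT1 in every alternative run.

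Whether the replicate numbers pair the samples could not be settled with 3 libraries per condition. Deviations of same-numbered libraries correlated at -0.00052, 0.08 and 0.19, and sgCtrl replicate 3 correlated best with its own number. Replicates 1 and 2 of sgCtrl did not correlate best with their own number, replicate 2 being at 0.14 with sgN6AMT1 replicate 1. With the number as a replicate block, 5 of the 46 were called, 2 of the 36 and 1195 of all genes. HSD17B10 (adjusted p = 0.0330, edgeR) and TBRG4 were the additions. With the block and the GC correction, 3 of the 46 (FASTK, THG1L and TRIT1) and 1386 of all genes were called. In that fit FASTK was at adjusted p = 0.0334 and HSD17B10 at 0.121 (edgeR).

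TRIT1 and FASTK did not pass in DESeq2 (adjusted p = 0.0706 and 0.0681). With a library left out, 13 of the 43 tested transcripts changed sign in at least 1 fit, none of them with a log2 fold change beyond 0.204 in size with all libraries. Of those described library by library, 4 reversed under some alternative. KIAA0391 was at -0.000511 in DESeq2 and -0.0039 with total counts. TFB2M was at 0.0188 with the GC correction and 0.0045 with the block added. With a library left out, TRMT10C ran from -0.0908 to 0.331, KIAA0391 from -0.17 to 0.15, ELAC2 from -0.205 to 0.11 and TFB2M from -0.17 to 0.0477. The sign changed without sgCtrl replicate 1 for TRMT10C, KIAA0391 and ELAC2, without sgCtrl replicate 2 or 3 or sgN6AMT1 replicate 2 for TFB2M, without sgN6AMT1 replicate 1 for ELAC2, and without sgN6AMT1 replicate 3 for KIAA0391. The causes were not tested.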
